A study of Mus musculus with 14 samples.

Results

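The collagen genes are the 43 genes of the deposited expression table, out of 16703, whose symbol has the form of a collagen alpha chain (Col, a type number, the letter a and a chain number). They were taken by symbol alone, and no measured value entered the choice. By the known build of their proteins they were put into 11 fibrillar genes, 8 basement membrane genes and 24 genes of other types. Of the collagen genes listed for these classes, Col10a1 and Col21a1 were not in the table and were not analysed here.

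Collagens are secreted proteins in which alpha chains wind around each other as a triple helix, and the helix requires chains built from triplets that each begin with glycine. Fibrillar collagens assemble into the long fibrils of connective tissue, collagen IV forms the sheet-like network of basement membranes around blood vessels and at the pial surface, and further types sit on fibrils, span cell membranes or make other networks. In the healthy spinal cord collagen is found mainly in the meninges and around vessels, where fibroblasts, pericytes, smooth muscle cells and endothelial cells are known to make it, and fibrous matrix can be laid down in inflamed lesions.

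The libraries came from the spinal cord of C57Bl/6 mice with experimental autoimmune encephalomyelitis (EAE), a model of multiple sclerosis induced with a peptide of myelin oligodendrocyte glycoprotein in complete Freund's adjuvant. All animals had been gonadectomised, the females by ovariectomy and the males by castration, and received dihydrotestosterone (DHT, an androgen that activates the androgen receptor) or its vehicle by the nose every day from the onset of neurological disability. The table held 4 vehicle and 3 DHT libraries of each sex, named here female vehicle 1 to 4, female DHT 1 to 3, male vehicle 1 to 4 and male DHT 2 to 4 after its columns, which could not be tied to particular sample records. The sexes came from separate datasets, so that a difference between females and males and a difference between datasets cannot be told apart. The question put to the collagen genes was which of them differed between DHT and vehicle within each sex. Whole spinal cord was measured, and fewer cells of a type and less RNA per cell cannot be told apart.

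Values are log2 CPM (counts scaled to the total of each library) as the authors deposited them after normalisation. Whole-number totals per library lay between 29311155 and 35761972. Xist, the RNA of the inactive X chromosome, stood at 3.04 log2 CPM in the library labelled female vehicle 3, against 6.80 to 9.22 in the other female libraries, and at 7.41 in the library labelled male DHT 3, against −3.39 to 0.14 in the other male libraries. These 2 libraries also carried 23.7% and 62.8% of a direction of variation that the normalised values lack, so their values are not fully independent of the other libraries. Counts of called collagen genes are given with and without them, and so is each named gene whose call within a sex changed without one of them. Centring on 28 housekeeping genes raised every female change by 0.34 and every male change by 0.069, which moved the median change of all genes in females from −0.019 to 0.32 and the calls over all genes in females from 3306 higher and 4565 lower to 8165 and 2272, and quantile normalisation moved it to 0.13, so that the female changes below are relative to the typical gene. A gene was called changed at an adjusted p under 0.05 in limma's moderated test, with Benjamini-Hochberg adjustment over all 16703 genes. Before centring, 17 of the 28 housekeeping genes were themselves called lower and 4 higher in females (median change −0.27). In males 3 were called lower and 5 higher. Female changes centred on the housekeeping genes are therefore relative to a set that itself moved.

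The repeat that defines the family was read from the coding sequence of each gene. In 9 fibrillar genes the longest unbroken run of glycine-led triplets held 337 to 344 triplets, and in Col24a1 and Col27a1 it held 216 and 217. The basement membrane genes had longest runs of 30 to 66 triplets, and in the type IV genes the repeat was broken into 22 to 27 runs of 5 or more triplets. Exons of 54 bases, which hold exactly 6 triplets, made up 41.2% to 55.0% of the coding exons of the fibrillar genes and 2.13% to 7.32% of those of the basement membrane genes. Across all 43 genes 402 of the 466 in-frame exons of 54 bases had a glycine codon at the start of all 6 triplets. The first such exon is printed for 9 genes on which the results turn, the fibrillar Col1a1, Col1a2, Col3a1 and Col24a1, the basement membrane Col4a1, and the other types Col20a1, Col9a2, Col9a3 and Col25a1. Positions are on mouse build GRCm38 (mm10), the sequence runs 5′ to 3′ along the gene, and capitals mark the glycine codons.
Col1a1, coding exon 9, chr11:94940118-94940171, plus strand: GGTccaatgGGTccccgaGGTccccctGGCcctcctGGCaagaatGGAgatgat
Col1a2, coding exon 8, chr6:4515481-4515534, plus strand: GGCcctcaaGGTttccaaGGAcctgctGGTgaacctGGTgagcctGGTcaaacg
Col3a1, coding exon 6, chr1:45325360-45325413, plus strand: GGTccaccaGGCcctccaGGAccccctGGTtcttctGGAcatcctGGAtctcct
Col24a1, coding exon 4, chr3:145320661-145320714, plus strand: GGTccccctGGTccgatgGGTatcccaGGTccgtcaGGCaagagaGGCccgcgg
Col4a1, coding exon 7, chr8:11245211-11245264, minus strand: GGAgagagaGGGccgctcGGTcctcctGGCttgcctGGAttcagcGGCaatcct
Col20a1, coding exon 27, chr2:181009377-181009430, plus strand: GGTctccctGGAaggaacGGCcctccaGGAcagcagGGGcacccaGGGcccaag
Col9a2, coding exon 5, chr4:121043696-121043749, plus strand: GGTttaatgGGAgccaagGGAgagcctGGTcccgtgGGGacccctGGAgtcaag
Col9a3, coding exon 5, chr2:180601582-180601635, plus strand: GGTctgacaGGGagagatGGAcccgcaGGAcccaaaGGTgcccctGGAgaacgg
Col25a1, coding exon 13, chr3:130517684-130517737, plus strand: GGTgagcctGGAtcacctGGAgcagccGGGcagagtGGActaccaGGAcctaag

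**Figure D1:**
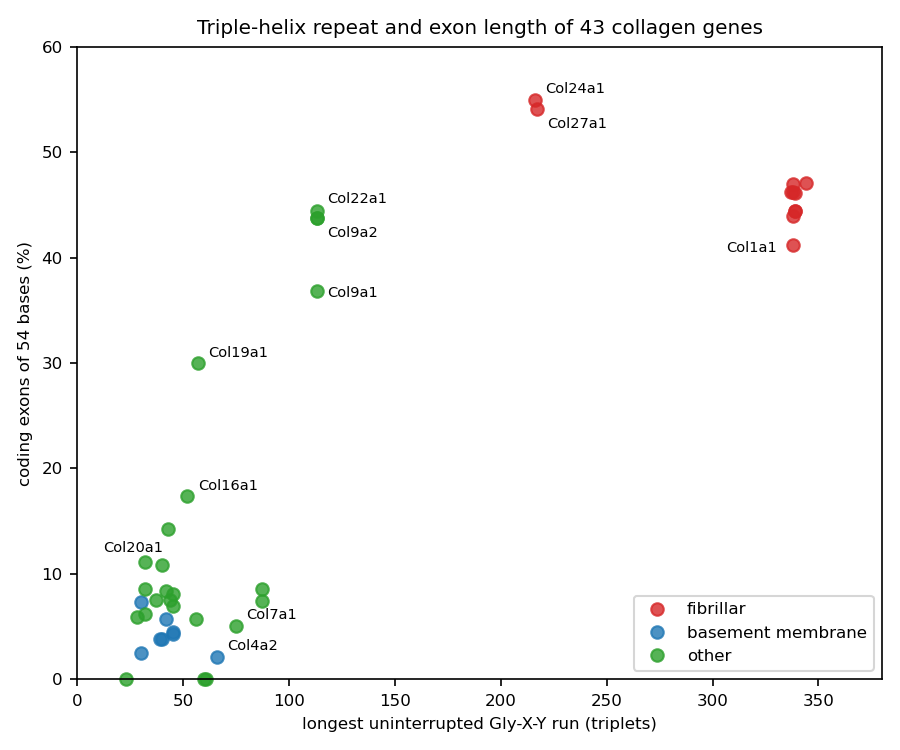
Longest unbroken Gly-X-Y run in triplets (x axis) against the share of coding exons that are 54 bases long in percent (y axis), 1 point per collagen gene, coloured by class. The fibrillar genes stand at 216 to 344 triplets and 41.2% to 55.0%, and all 8 basement membrane genes at 66 triplets or fewer and at most 7.32%.

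With DHT, 11 collagen genes fell and 6 rose in females, and 5 fell and 1 rose in males. In females the share that fell was 25.6%, beside 27.3% of all genes called lower, and the share that rose was 13.95%, beside 19.8% of all genes called higher. In males 11.6% fell, beside 10.7% of all genes called lower, and 2.33% rose, beside 12.1% of all genes called higher. In this fit the collagen genes as a family were therefore called lower about as often as genes at large in both sexes. That did not hold in males when each sex was fitted alone. There 13 of the 43 were called lower in males, beside 2702 of all 16703 genes. In females 4 were called lower in that fit, beside 2614 of all genes. The median log2 fold change of the 43 genes was −0.055 in females and −0.23 in males, where the medians of all genes were −0.019 and −0.0043. Col20a1 and Col25a1 were called in both sexes, 15 genes in females only and 4 in males only, and 22 genes in neither. Over all genes 7871 were called in females and 3806 in males, and calls shared by the sexes were not counted there. A call in 1 sex only does not show that the sexes differ, which was tested separately below.

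**Figure D2:**
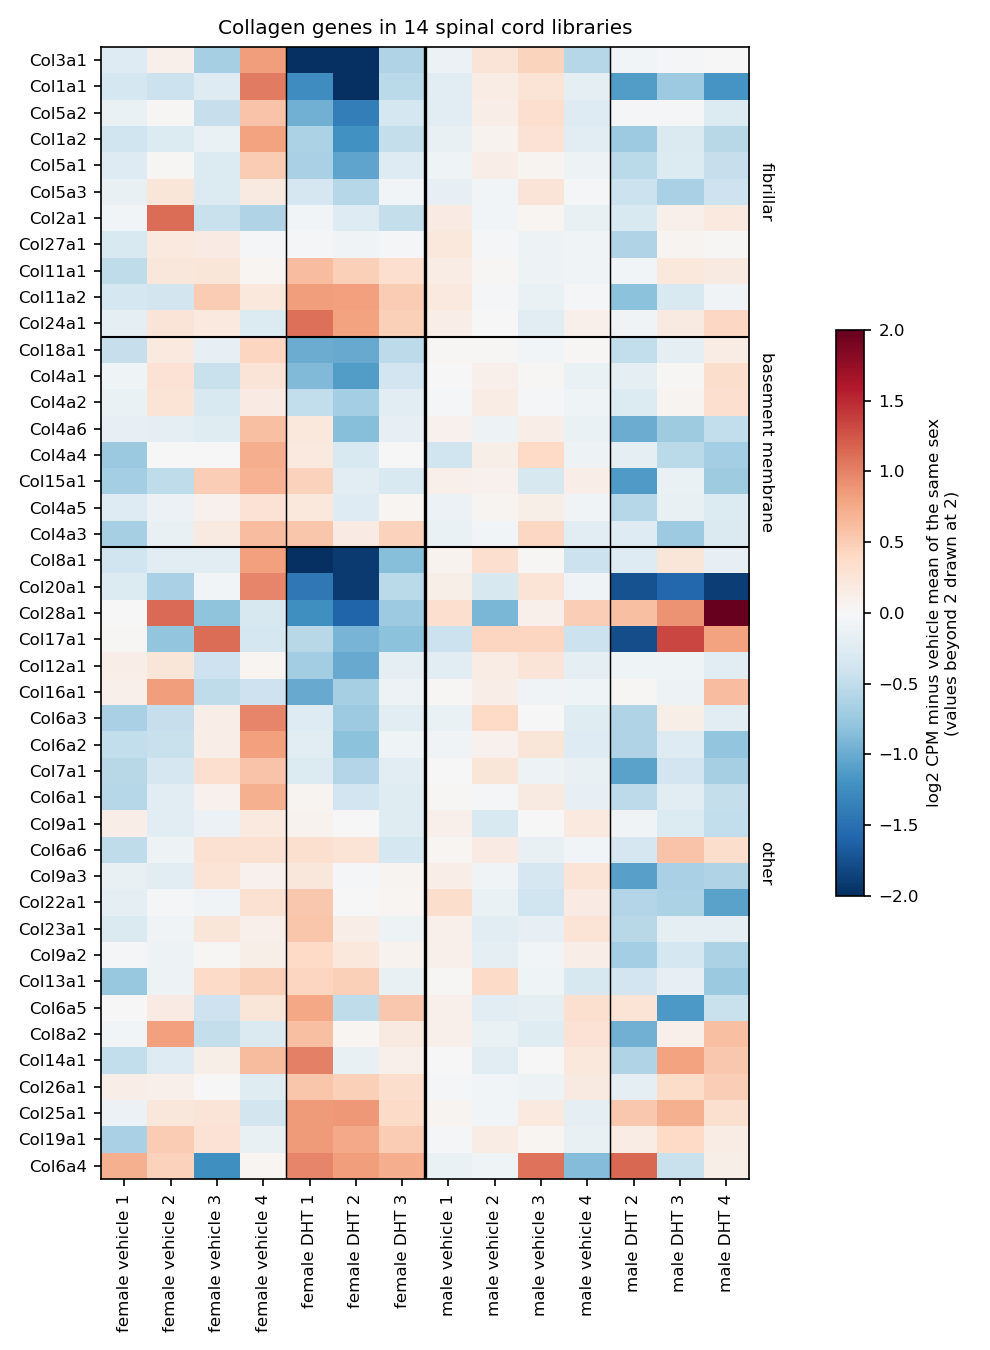
Level of each of the 43 collagen genes (rows, by class and ordered by the female change) in each of the 14 libraries (columns), as log2 CPM minus the mean of the vehicle libraries of the same sex, red for higher and blue for lower. Values beyond 2 in either direction are drawn at 2. Col3a1 and Col8a1 are dark blue in female DHT 1 and 2, and Col20a1 is blue in all 6 DHT libraries.

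Among the 11 fibrillar genes 5 fell (45.5%) and 3 rose (27.3%) in DHT females, beside 27.3% and 19.8% of all genes. In males 1 fell (9.09%) and none rose, beside 10.7% and 12.1% of all genes. Collagen I, a heterotrimer of chains encoded by Col1a1 and Col1a2, is the main fibril collagen of fibrous tissue. Col1a1 stood at 7.22, 7.13, 7.30 and 8.61 log2 CPM in female vehicle 1 to 4 and at 6.32, 5.55 and 7.02 in female DHT 1 to 3. Every DHT library lay below every vehicle library, and female vehicle 4 stood well above the other vehicle libraries. The level was 0.416 times that of vehicle (log2 fold change −1.26, SE 0.37, adjusted p = 0.0145), and without female vehicle 4 the change was −0.92. In males Col1a1 was at 7.58, 7.97, 8.08 and 7.61 with vehicle and 6.70, 7.08 and 6.64 with DHT, again without overlap, but the change did not pass the threshold (log2 fold change −1.01, SE 0.37, adjusted p = 0.0640; without male DHT 3 −1.14). When each sex was fitted alone the male change passed (adjusted p = 0.00269) and the female call was lost (adjusted p = 0.0695).

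Col1a2, the partner chain, stood at 7.51, 7.62, 7.76 and 8.71 log2 CPM in the female vehicle libraries and at 7.27, 6.68 and 7.43 in the female DHT libraries. The groups did not overlap, and the change was called (log2 fold change −0.77, SE 0.26, adjusted p = 0.0304). That call was lost in 7 of 26 alternatives, among them without female vehicle 4 at −0.50 (adjusted p = 0.0568) and centred on the housekeeping genes at −0.43 (adjusted p = 0.137). The male libraries did not overlap either (7.73 to 8.24 with vehicle, 7.21 to 7.65 with DHT), with a change of −0.53 that was not called (adjusted p = 0.166). Col3a1, whose product co-assembles with collagen I in pliable tissues and vessel walls, had with Col8a1 the most negative female changes of the family. It stood at 7.78, 8.14, 7.37 and 8.87 in female vehicle 1 to 4 and at 5.84, 5.79 and 7.44 in female DHT 1 to 3. Female DHT 3 lay just above female vehicle 3, and the other DHT libraries lay more than 1 log2 unit below every vehicle library (log2 fold change −1.68, SE 0.41, adjusted p = 0.00702; without female vehicle 3 −1.91). Its male levels covered 6.90 to 7.91 with vehicle and 7.42 to 7.46 with DHT, all 3 DHT libraries within the vehicle range (log2 fold change −0.031, SE 0.41, adjusted p = 0.968).

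Type V chains are minor partners inside collagen I fibrils and help to set their number and width. Col5a2 stood at 5.85, 6.01, 5.53 and 6.55 log2 CPM in the female vehicle libraries and at 5.02, 4.60 and 5.63 in the female DHT libraries, overlapping by female DHT 3 alone (log2 fold change −0.90, SE 0.26, adjusted p = 0.0132). Col5a1 followed with 5.39, 5.67, 5.37 and 6.15 against 4.99, 4.60 and 5.39 (log2 fold change −0.65, SE 0.20, adjusted p = 0.0171). Without female vehicle 3 the changes were −1.05 and −0.74, and centred on the housekeeping genes Col5a1 was no longer called, at −0.31 (adjusted p = 0.121). Both kept the order seen for Col1a1, Col1a2 and Col3a1, with female vehicle 4 the highest library and female DHT 2 the lowest. In males Col5a2 changed by −0.11 (adjusted p = 0.781) and Col5a1 by −0.42 (adjusted p = 0.134), and neither was called. Col5a3 was the fibrillar gene called in males, at 5.85, 5.96, 6.26 and 5.98 with vehicle and 5.59, 5.37 and 5.60 with DHT, without overlap (log2 fold change −0.49, SE 0.15, adjusted p = 0.0344). That call was lost without male DHT 3 (adjusted p = 0.136). In females Col5a3 changed by −0.32 and did not pass (adjusted p = 0.0919), and it passed without female vehicle 3 (adjusted p = 0.0362).

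The fibrillar genes that rose in DHT females belong to types XI and XXIV. Col24a1, which encodes a fibrillar chain with a shorter and interrupted helix, stood at 3.35, 3.78, 3.71 and 3.25 log2 CPM with vehicle and at 4.63, 4.33 and 4.004 with DHT in females, without overlap (log2 fold change 0.80, SE 0.18, adjusted p = 0.00532). Type XI chains are best known from cartilage fibrils. Col11a2 was at 5.11, 5.10, 5.97 and 5.67 against 6.30, 6.28 and 5.97 (log2 fold change 0.72, SE 0.22, adjusted p = 0.0173), with female vehicle 3 the highest vehicle library and only just below female DHT 3. Without female vehicle 3 the change was 0.89 (adjusted p = 0.00540). Col11a1 was at 5.74, 6.47, 6.49 and 6.29 against 6.87, 6.73 and 6.58, and the lowest DHT library lay just above the highest vehicle library (log2 fold change 0.48, SE 0.15, adjusted p = 0.0232). None of these 3 genes was called in males, where the changes were 0.17 for Col24a1, −0.40 for Col11a2 and 0.11 for Col11a1. Col2a1, the main fibril collagen of cartilage, and Col27a1 were called in neither sex, with female changes of −0.26 and −0.041.

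**Figure D3:**
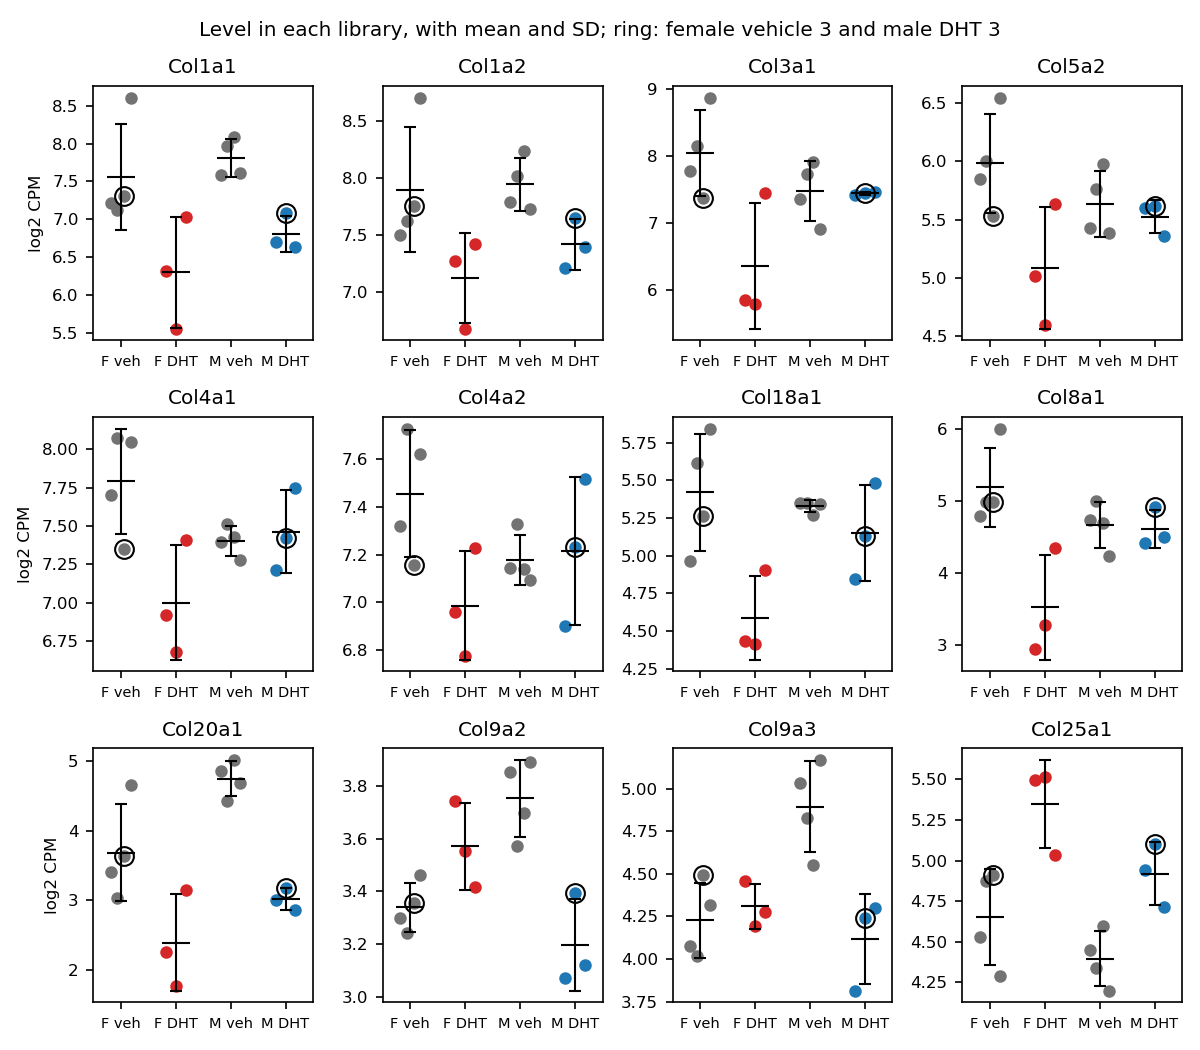
Log2 CPM of 12 collagen genes in each library of the 4 groups (points), with mean and SD (bars), and rings around female vehicle 3 and male DHT 3. Col1a1, Col1a2, Col18a1 and Col8a1 do not overlap between female vehicle and female DHT, Col20a1, Col9a2 and Col9a3 do not overlap between male vehicle and male DHT, and Col25a1 is higher with DHT in both sexes.

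Of the 8 basement membrane genes 3 fell (37.5%) in DHT females and none rose, beside 27.3% and 19.8% of all genes. No member was called in males, beside 10.7% of all genes lower and 12.1% higher. Col4a1 and Col4a2 encode the chains of the collagen IV trimer of vascular basement membranes. Per length of exons merged over transcripts, they and Col1a1 stood highest among the collagen genes. The medians over the 14 libraries were 22.9 CPM per kilobase for Col4a1, 22.1 for Col4a2 and 22.0 for Col1a1. That ranking depends on the annotated length, as Col1a2, above Col1a1 in CPM in every library, has 12426 merged bases against 6563. The coding sequences of Col1a2 and Col1a1 hold 1372 and 1453 codons. Col4a1 stood at 7.70, 8.08, 7.35 and 8.05 log2 CPM in female vehicle 1 to 4 and at 6.92, 6.68 and 7.41 in female DHT 1 to 3. Female DHT 3 lay above female vehicle 3, the lowest vehicle library, and the other DHT libraries lay below all 4 (log2 fold change −0.79, SE 0.20, adjusted p = 0.00761). Without female vehicle 3 the change was −0.94 (adjusted p = 0.00447). Col4a2 was at 7.32, 7.73, 7.16 and 7.62 against 6.96, 6.77 and 7.23 and overlapped in the same libraries (log2 fold change −0.47, SE 0.16, adjusted p = 0.0313). Centred on the housekeeping genes Col4a2 was no longer called, at −0.13 (adjusted p = 0.507). In males the changes were 0.059 for Col4a1 and 0.039 for Col4a2, and with a covariate for the missing direction of variation their signs turned (−0.043 and −0.052).

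The 2 genes lie head to head on chromosome 8 with first exons that overlap by 22 bases, and so share the stretch from which both are transcribed. RefSeq's promoter table held 34 of the 43 collagen genes. Col4a2's entry is printed because both genes of the pair were called lower in females and the entry spans both start sites. The entry runs from 250 bases before to 50 after the start of Col4a2 on GRCm38.p6. It was searched on both strands for the letters of the TATA box (TATAAA), for those of the CCAAT box and for those of the GC box (GGGCGG), and capitals mark the matches, which do not overlap each other there.
Col4a2 start region, chr8:11312555-11312854, plus strand: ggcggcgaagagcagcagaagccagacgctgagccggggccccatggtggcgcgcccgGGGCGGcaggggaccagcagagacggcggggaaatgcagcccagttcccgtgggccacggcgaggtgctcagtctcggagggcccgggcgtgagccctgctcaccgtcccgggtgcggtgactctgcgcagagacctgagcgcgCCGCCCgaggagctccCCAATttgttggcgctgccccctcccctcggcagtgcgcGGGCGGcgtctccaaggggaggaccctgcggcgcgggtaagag
It held CCAAT 1 time, GGGCGG 3 times and TATAAA not at all. Over all collagen genes with an entry GGGCGG was found in 64.7%, against 35.9% of the 27025 genes of the table, CCAAT in 35.3% against 37.9%, and TATAAA in 11.8% against 14.2%. A match is a string of letters and no measured binding.

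Col18a1, whose product carries heparan sulfate chains and releases endostatin on cleavage, stood at 4.96, 5.62, 5.26 and 5.84 log2 CPM in the female vehicle libraries and at 4.43, 4.42 and 4.90 in the female DHT libraries. The highest DHT library lay just below the lowest vehicle library (log2 fold change −0.84, SE 0.20, adjusted p = 0.00647). It changed by −0.18 in males (adjusted p = 0.551). The chains of the other collagen IV networks, Col4a3 to Col4a6, and the proteoglycan Col15a1 were not called in either sex, with female changes from −0.27 for Col4a6 to 0.40 for Col4a3. In males Col4a6 came nearest, at 2.67, 2.48, 2.72 and 2.45 with vehicle and 1.59, 1.86 and 2.08 with DHT, without overlap (log2 fold change −0.73, SE 0.25, adjusted p = 0.0527). Col15a1 had a male change of −0.66 (adjusted p = 0.174), with male DHT 3 at 5.21 within the vehicle range of 5.04 to 5.48.

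Among the other types, 3 genes fell (12.5%) and 3 rose (12.5%) in females, beside 27.3% and 19.8% of all genes. In males 4 fell (16.7%) and 1 rose (4.17%), beside 10.7% and 12.1% of all genes. Col8a1 encodes a short chain that forms networks in Descemet's membrane and in vessel walls. It stood at 4.80, 4.99, 4.99 and 6.01 log2 CPM in female vehicle 1 to 4 and at 2.95, 3.29 and 4.35 in female DHT 1 to 3. No DHT library reached the vehicle range, and the level was 0.315 times that of vehicle (log2 fold change −1.67, SE 0.34, adjusted p = 0.00478). In males the vehicle libraries covered 4.24 to 5.01 and the DHT libraries 4.42 to 4.91, a change of −0.059 (adjusted p = 0.917). Its partner gene Col8a2 was called in neither sex (females 0.27, males −0.091).

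The fibril-associated genes encode collagens with interrupted helices that sit on the surface of fibrils. Col20a1, a little-studied member of this class, was the collagen gene called lower in both sexes. In males it stood at 4.87, 4.43, 5.03 and 4.69 log2 CPM with vehicle and at 3.01, 3.18 and 2.86 with DHT. The groups were more than 1 log2 unit apart, and the level was 0.300 times that of vehicle (log2 fold change −1.74, SE 0.36, adjusted p = 0.00825). In females it was at 3.41, 3.04, 3.63 and 4.66 against 2.26, 1.77 and 3.14, overlapping by female DHT 3 (log2 fold change −1.29, SE 0.36, adjusted p = 0.0117). The male call held in all 26 alternatives, and the female call was lost in 2. Exons of Col20a1 overlap 79 bases of the gene BX649560.1 on the same strand, and reads from that stretch, 1.54% of its exons, could belong to either.

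Type IX chains coat cartilage fibrils and were called in males. Col9a2 stood at 3.85, 3.57, 3.70 and 3.89 log2 CPM in male vehicle 1 to 4 and at 3.07, 3.39 and 3.12 in male DHT 2 to 4 (log2 fold change −0.56, SE 0.11, adjusted p = 0.00792). Col9a3 stood at 5.03, 4.83, 4.55 and 5.17 against 3.81, 4.24 and 4.30 (log2 fold change −0.78, SE 0.17, adjusted p = 0.00921). In neither gene did a DHT library reach the vehicle range, and both calls held without male DHT 3, at −0.66 for Col9a2 and −0.84 for Col9a3. Col9a3 shares 234 exon bases, 6.07% of its exons, with Tcfl5 on the other strand. The library kit keeps strand, but whether the counting used it is not given in the sources used here, so reads of that stretch are uncertain. The third chain, Col9a1, was far lower (0.55 to 1.05 with vehicle) and was not called (−0.27, adjusted p = 0.266). In females none of the 3 chains was called, with changes of 0.23 for Col9a2, 0.082 for Col9a3 and −0.055 for Col9a1.

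Col22a1, known from tissue junctions such as that of muscle and tendon, was at 2.89, 2.40, 2.14 and 2.70 log2 CPM in the male vehicle libraries and at 1.95, 1.90 and 1.47 in the male DHT libraries, without overlap (log2 fold change −0.76, SE 0.21, adjusted p = 0.0218). Without male DHT 3 it was not called (adjusted p = 0.0578). Skeletal muscle markers stood high in part of the same libraries. Their summed level was 38.9 CPM in male DHT 2 and 11.7 in male DHT 4, against 3.09 to 4.40 in the male vehicle libraries, and their part in the result was not tested. Col12a1, which binds collagen I fibrils under tension, fell in females from 6.27, 6.36, 5.71 and 6.17 to 5.43, 5.12 and 5.92 (log2 fold change −0.63, SE 0.19, adjusted p = 0.0179), with female DHT 3 above female vehicle 3. Without female vehicle 3 the change was −0.77, and centred on the housekeeping genes Col12a1 was not called, at −0.29 (adjusted p = 0.144). Col19a1 rose in females from 2.43, 3.596, 3.37 and 2.94 to 3.94, 3.84 and 3.597, where the lowest DHT library only just cleared the highest vehicle library (log2 fold change 0.71, SE 0.22, adjusted p = 0.0191). It changed by 0.23 in males (adjusted p = 0.462). Col16a1, the highest of the class per merged exon length at 16.7 CPM per kilobase, was called in neither sex (females −0.59, males 0.18). Nor was Col14a1 (females 0.32, males 0.24).

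Transmembrane collagens are anchored in the cell surface, and Col25a1, which encodes a neuronal member that binds amyloid fibrils, rose in both sexes. In females it stood at 4.53, 4.88, 4.91 and 4.29 log2 CPM with vehicle and at 5.50, 5.52 and 5.03 with DHT (log2 fold change 0.70, SE 0.17, adjusted p = 0.00695). In males it stood at 4.45, 4.34, 4.60 and 4.20 against 4.94, 5.10 and 4.72 (log2 fold change 0.52, SE 0.17, adjusted p = 0.0434). The groups did not overlap in either sex. The female call held in all 26 alternatives, whereas the male call was lost in 11, among them without male DHT 3 (adjusted p = 0.164). Beside it, all 6 neuronal markers rose in females and 2 of 6 in males (1 without male DHT 3), and their part in the result was not tested. Col23a1 was called in neither sex (females 0.20, males −0.30), nor was Col13a1 (females 0.25, males −0.43).

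None of the 6 genes of the beaded filaments was called. Collagen VI is a trimer of the chains of Col6a1, Col6a2 and a further chain such as Col6a3. Col6a1 was at 4.66, 5.01, 5.31 and 5.93 log2 CPM in the female vehicle and 5.28, 4.84 and 4.98 in the female DHT libraries (adjusted p = 0.504). The vehicle libraries spread over more than 1 log2 unit and enclosed all 3 DHT libraries. Female changes were −0.19 for Col6a1, −0.37 for Col6a2 and −0.40 for Col6a3, and male changes were −0.41, −0.55 and −0.23 in the same order. In males Col6a1 and Col6a2 did not overlap between the groups, and Col6a3 did. Of the remaining types, Col26a1 rose in females from 2.56, 2.52, 2.42 and 2.18 to 2.97, 2.90 and 2.78, without overlap (log2 fold change 0.46, SE 0.15, adjusted p = 0.0272). Col7a1, the collagen of anchoring fibrils, was not called in females (−0.36) and came near the threshold in males (log2 fold change −0.70, SE 0.25, adjusted p = 0.0601).

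Whether the DHT change differed between the female and the male libraries was tested for every gene as the female change minus the male change. Of the collagen genes 1 was called, beside 1.86% of all genes. Col9a2 had a difference of 0.79 (SE 0.16, adjusted p = 0.0389), from 0.23 in females and −0.56 in males. The call was lost in 15 of 25 alternatives, where the adjusted p over all 25 ran from 0.00392 to 0.116, among them without female vehicle 3 and male DHT 3 together (0.89, adjusted p = 0.0541). The female decreases of Col3a1 and Col8a1 and their small male changes gave differences of −1.65 and −1.61 that did not pass (adjusted p = 0.108 and 0.0763). Col28a1, picked out after its values were seen, had opposite signs in the sexes. It stood at 3.66, 4.82, 2.87 and 3.36 log2 CPM in the female vehicle and 2.45, 2.07 and 2.95 in the female DHT libraries, and at 2.47, 1.22, 2.24 and 2.63 in the male vehicle and 2.74, 3.03 and 4.21 in the male DHT libraries. The DHT libraries of males all lay above the male vehicle libraries, and those of females overlapped the female vehicle libraries only by female DHT 3. Neither change was called (log2 fold change −1.18, SE 0.48, adjusted p = 0.0584 in females and log2 fold change 1.19, SE 0.48, adjusted p = 0.0904 in males), nor was the difference of −2.37 (adjusted p = 0.0700). The female change was called without female vehicle 3, at −1.45 (adjusted p = 0.0278), and the male change was 1.33 without male DHT 3. Among the 17 genes called in females 14 had the same sign of change in males, or 82.4%, beside 80.2% of all genes called in females. Among the 6 called in males 3 had the same sign in females, beside 82.6% of all genes called in males.

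**Figure D4:**
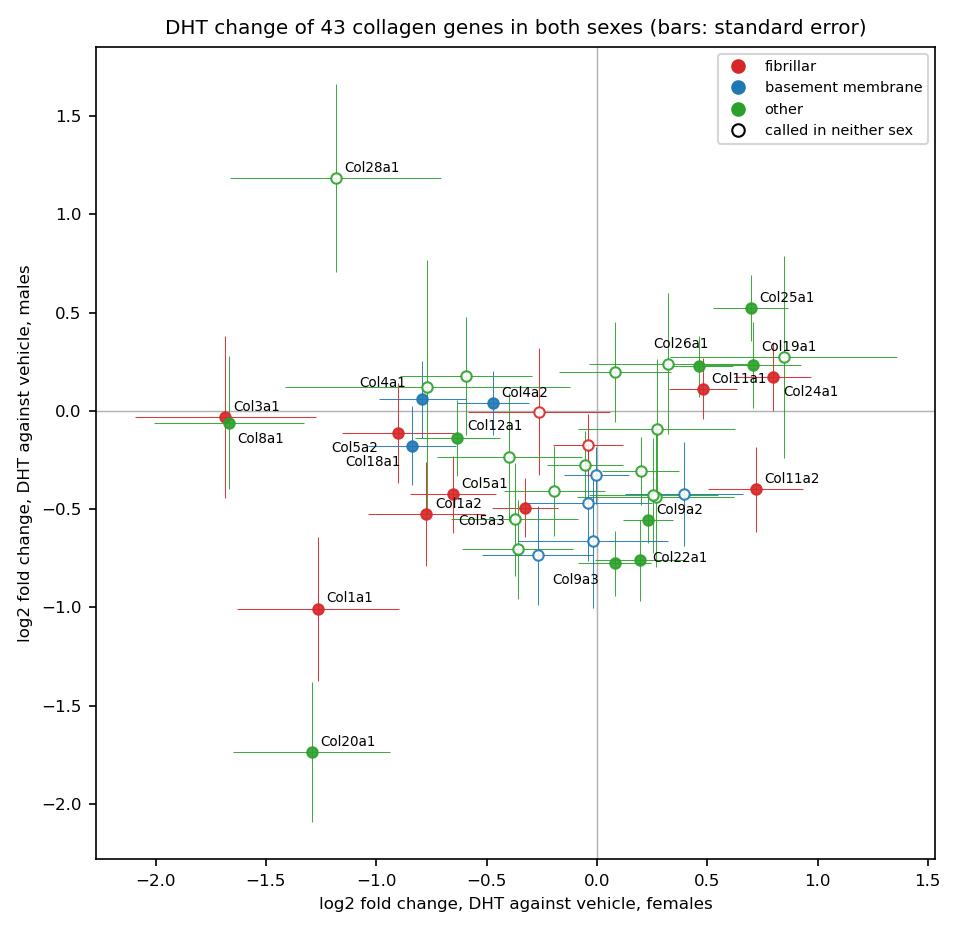
Log2 fold change with DHT in females (x axis) and in males (y axis) for the 43 collagen genes, with standard errors (bars), coloured by class, filled where called in a sex. Col3a1 and Col8a1 stand at −1.68 and −1.67 in females beside values near zero in males, Col1a1 and Col20a1 are low in both, and Col28a1 is the gene at −1.18 and 1.19.

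The ratio of partner chains within a library does not depend on a single scaling factor per library. The values also lack a direction of variation, carried 23.7% by female vehicle 3 and 62.8% by male DHT 3. What that did to the ratios was not tested. The log2 ratio of Col1a1 to Col1a2 in CPM was −0.21, −0.052, −0.16 and −0.12 in male vehicle 1 to 4 and −0.52, −0.57 and −0.76 in male DHT 2 to 4. The male groups were apart by 0.31. In females the ratio was −0.29, −0.50, −0.46 and −0.100 with vehicle and −0.95, −1.13 and −0.40 with DHT, overlapping by female DHT 3, and the mean was lower with DHT by a similar amount in both sexes (−0.49 in females, −0.48 in males). For Col4a1 to Col4a2 the female values were 0.38, 0.35, 0.19 and 0.43 with vehicle and −0.041, −0.096 and 0.18 with DHT, the highest DHT library only just under female vehicle 3. In males the same ratio overlapped throughout, with means of 0.23 with vehicle and 0.25 with DHT. The ratios of Col6a1 and of Col6a3 to Col6a2 overlapped between DHT and vehicle in both sexes. No test was run on the ratios.

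**Figure D5:**
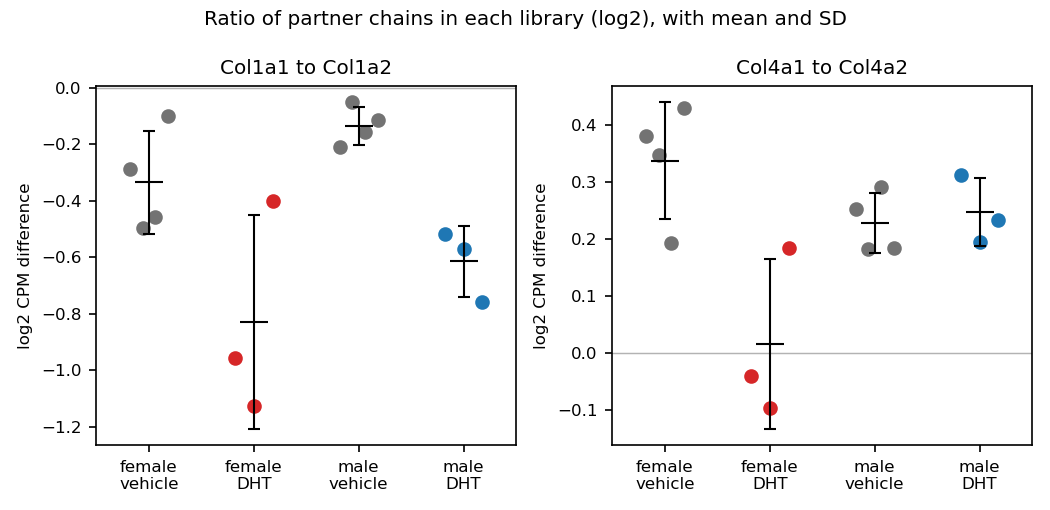
Log2 CPM of Col1a1 minus that of Col1a2 (left) and of Col4a1 minus that of Col4a2 (right) in each library of the 4 groups (points), with mean and SD (bars). The Col1a1 to Col1a2 ratio is lower in all male DHT libraries than in any male vehicle library, and the Col4a1 to Col4a2 ratio does not overlap between the female groups.

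In the library labelled female vehicle 3, whose Xist goes against its label, 13 of the 43 collagen genes were the lowest of the 4 female vehicle libraries, 6 the highest and 24 in between. Neither these positions nor the median differences of this library were taken over all genes. They cannot be read as particular to the collagen genes. Against the mean of the other female vehicle libraries the median difference was −0.35 over the fibrillar genes, −0.10 over the basement membrane genes and 0.067 over the other types. Col6a4, a beaded filament chain, was at −0.50 log2 CPM in this library and at 1.44, 1.19 and 0.77 in the others, which is 20 against 48 to 81 on the whole-number scale. Col17a1, a transmembrane collagen of epithelial hemidesmosomes, was highest there, at −0.25 against −2.16 to −1.36, which is 24 against 5 to 10. These were the only members in which the library stood more than 1 log2 unit from the nearest other, and neither was called in either sex. Without it, all 17 female calls held, and Col5a3 and Col28a1 were called as well, so that 13 collagen genes fell and 6 rose. Over all 16703 genes 4557 were then called lower and 3539 higher in females. Without male DHT 3, the other library whose Xist goes against its label, the male calls of Col9a2, Col9a3 and Col20a1 held and those of Col5a3, Col22a1 and Col25a1 were lost, so that 3 collagen genes fell and none rose. Male calls over all genes dropped as well, from 1783 lower and 2023 higher to 655 and 547.

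Collagen needs modifying enzymes in the endoplasmic reticulum, and 11 of the 17 measured genes of that list fell in females with none rising, while 3 fell in males. There were 12 without female vehicle 3, and without male DHT 3 there was 1. Centred on the housekeeping genes 6 fell and 4 rose in females. Over all genes 27.3% were called lower in females and 10.7% in males. Colgalt1, which adds galactose to hydroxylysine, fell in both sexes. It stood at 6.25, 6.08, 6.24 and 6.71 log2 CPM with vehicle and 5.50, 5.37 and 5.97 with DHT in females and at 6.74, 6.68, 6.63 and 6.77 against 6.05, 6.03 and 5.99 in males. DHT and vehicle did not overlap in either sex (log2 fold change −0.71, SE 0.15, adjusted p = 0.00481 in females and log2 fold change −0.68, SE 0.15, adjusted p = 0.00975 in males). Crtap, part of the complex that 3-hydroxylates prolines, also fell in both (−0.61 and −0.41, adjusted p = 0.00478 and 0.0241; in males 0.0777 without male DHT 3). In females and not in males P4ha3, a catalytic subunit of prolyl 4-hydroxylase, was called lower (−0.90, adjusted p = 0.00478), as was the cyclophilin Ppib (−0.51, adjusted p = 0.00478), and P3h3 was called in males and not in females (−0.41, adjusted p = 0.0346, and 0.0801 without male DHT 3).

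Of 13 genes that process or cross-link procollagen outside the cell 5 fell and 2 rose in females, and 1 rose in males. Beside the counts of this paragraph, 27.3% of all genes were called lower and 19.8% higher in females. In males these shares were 10.7% and 12.1%. Centred on the housekeeping genes 5 fell and 5 rose in females, and without male DHT 3 no gene of the list was called in males. The lysyl oxidases, which start the cross-links between chains, fell in females for Loxl3 (−1.49, adjusted p = 0.00658) and Loxl1 (−1.15, adjusted p = 0.00635), and so did Bmp1, the proteinase that removes the C-propeptide (−0.84, adjusted p = 0.00811). Its relatives moved the other way, Tll1 in females (0.62, adjusted p = 0.0231) and Tll2 in males (0.73, adjusted p = 0.0265, and 0.1003 without male DHT 3). Of 11 proteins that bind fibrils 5 fell in females and 2 in males. Fn1, which encodes fibronectin, was at 10.54, 10.17, 10.01 and 11.29 log2 CPM with vehicle and 6.89, 7.82 and 9.84 with DHT in females, with no overlap (log2 fold change −2.32, SE 0.53, adjusted p = 0.00583). Thbs2 (−1.30, adjusted p = 0.00592) and Bgn (−1.15, adjusted p = 0.00545), which encode thrombospondin 2 and biglycan, fell in females, Fmod, which encodes fibromodulin, in males (−1.29, adjusted p = 0.0265), and Sparc, a collagen-binding glycoprotein, in both (−0.38 and −0.43). Ogn, which encodes osteoglycin, had log2 fold changes of 0.81 in females and 0.81 in males, neither of them called (adjusted p = 0.158 and 0.212).

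Of 12 other basement membrane proteins 2 fell in females and 4 in males. Beside these and the receptor counts below, 27.3% of all genes were called lower in females and 10.7% in males. Of the basement membrane proteins 3 fell in females without female vehicle 3, and 1 in males without male DHT 3. The direction in females turned with the scaling, since 3 rose and none fell after centring on the housekeeping genes. Lamb2, which encodes the laminin beta 2 chain, stood at 6.38, 6.47, 6.56 and 6.38 log2 CPM in the male vehicle and 5.79, 5.86 and 6.13 in the male DHT libraries, without overlap (log2 fold change −0.52, SE 0.099, adjusted p = 0.00670). Lama5, another laminin chain gene, fell in males (−0.65, adjusted p = 0.0117, and 0.0560 without male DHT 3) and in females only without female vehicle 3 (−0.48, adjusted p = 0.00904), Lamc1 in females (−0.34, adjusted p = 0.0128), and Nid2, which encodes a nidogen that links laminin to collagen IV, in both (−0.59 and −0.90), where leaving out male DHT 3 ended the call in males (adjusted p = 0.0514). Of 10 collagen receptors 6 fell in females and 2 in males, the same counts as without either library, but centred on the housekeeping genes 2 fell and 2 rose in females. They included the integrin subunits Itgb1 (−0.78, adjusted p = 0.00478) and Itga1 (−0.50, adjusted p = 0.00804) and the inhibitory leukocyte receptor Lair1 (−1.57, adjusted p = 0.00934) in females, and Ddr1, a receptor tyrosine kinase, in both sexes (−0.32 and −0.47). Itga2 fell in females (−0.82, adjusted p = 0.0216). Adgrg1, an adhesion receptor whose ligand in the brain is collagen III, was at 6.80, 6.72, 6.80 and 6.79 in female vehicle and 6.75, 6.75 and 6.83 in female DHT libraries, and at 7.25, 7.23, 7.14 and 7.25 in male vehicle and 6.73, 6.73 and 6.78 in male DHT libraries. The male groups were clear of each other (log2 fold change −0.47, SE 0.046, adjusted p = 0.00250), the female values overlapped, and the difference of the changes was called (0.47, adjusted p = 0.0262). The call of the difference was lost in 12 of 25 alternatives, where the adjusted p over all 25 ran from 0.00192 to 0.0938, among them without male DHT 3 (0.46, adjusted p = 0.0714) and with the missing direction as covariate (adjusted p = 0.0595). The male call held without male DHT 3 (adjusted p = 0.0193).

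Markers of cells known to make collagen were read beside the collagen genes. For the marker counts here and below, 27.3% of all genes were called lower and 19.8% higher in females. In males these shares were 10.7% and 12.1%. Of 12 fibroblast and leptomeningeal markers none fell and 1 rose in females, and 2 fell in males, Slc22a6 being the only one at 0 in a library. Their summed level was 299.6 to 535 CPM in the female vehicle and 296 to 366 in the female DHT libraries, and 261 to 508 against 369 to 455 in males. The groups overlapped in both sexes. The sum of all 11 fibrillar genes was 818 to 1664 against 518 to 819 CPM in females, where female DHT 3 just reached the lowest vehicle library, and 864 to 1182 against 701 to 836 in males, without overlap. Pericyte and smooth muscle markers summed to 406 to 448 against 413 to 495 CPM in females (2 of 10 rose and 1 fell) and 399 to 455 against 362 to 430.2 in males (1 rose and 1 fell). After centring on the housekeeping genes 6 of these 10 rose and none fell in females. Without male DHT 3 none of them was called in males. Endothelial markers summed to 383 to 478 against 366 to 416 CPM in females (3 of 8 fell, but none fell and 2 rose after centring on the housekeeping genes) and 428 to 462 against 379.6 to 464 in males (2 of 8 fell).

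Immune markers were lower in the same DHT females in which 5 of 11 fibrillar and 3 of 8 basement membrane genes fell. All 8 macrophage and microglia markers fell in females, from 1454 to 5391 to 209 to 1438 CPM in sum, and 3 of 8 in males, from 5003 to 7306 to 1271 to 2178, with 1 of 8 called in males without male DHT 3. The sums did not overlap in either sex. Female vehicle 4 and female DHT 3 had the highest sums and the highest Col1a1 and Col3a1 of their groups. Across female vehicle 1 to 4 the sums were 2080, 1454, 3247 and 5391 CPM, and Col1a1 put these libraries in the same order. Col3a1 put them in another order, with female vehicle 2 second highest and female vehicle 3 the lowest. Among the DHT females, female DHT 1 had the lowest sum and female DHT 2 the lowest Col1a1 and Col3a1. All 7 T cell markers fell in females, from 49.8 to 93.9 to 1.65 to 33.7 CPM, and none in males. None of the macrophage or T cell markers was at 0 in a library. Oligodendrocyte markers were at 14972 to 18716 CPM in female vehicle and 20162 to 24436 in female DHT libraries (2 of 6 rose), and neuron and astrocyte markers were present in every library. Schwann cell markers summed to 349 to 816 against 654 to 1816 CPM in females and 155 to 649 against 187 to 859.6 in males, where groups overlapped. Cartilage and bone markers, of which 7 of 10 were in the table, summed to 39.4 to 46.8 against 46.9 to 61.1 CPM in females (3 rose and 1 fell) beside the rise of Col11a1 and Col11a2. The markers did not move together in females. Acan (0.84) and Alpl (0.66) were among those that rose, Runx2 fell (−1.47), and Comp (0.015) and Matn1 (0.32) were not called. In males the 7 markers summed to 39.5 to 45.0 against 39.2 to 47.1, with none called, beside the fall of Col9a2 and Col9a3. The part of any of these cells in the collagen results was not tested.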

How the data were processed

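RNA of whole spinal cord was sequenced as strand-keeping paired-end libraries. Per the labels and the study's methods, the authors took the reads through FastQC, fastp and Picard, used DRAGEN for mapping to mm10 and counting over a GENCODE annotation, merged the female and male datasets with RUVSeq on housekeeping genes and normalised them with edgeR. The authors deposited 1 table of log2 CPM values for 14 libraries beside columns of their own comparisons (fold changes, p-values and FDR), which were not used. Back on the linear scale 100% of the values were whole multiples of a library's smallest step (tolerance 0.05), above a floor of 0.0631 CPM for genes with no reads. As these numbers already hold the normalisation they are not raw counts.

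These log2 values of the 4 groups entered 1 linear model in limma (version 3.58.1, R 4.3.3), moderated with a mean-variance trend, with contrasts for DHT within each sex and their difference, and the fit was tested on simulated data. No pseudocount or filter was added. The study's methods name a likelihood ratio test in one place and a quasi-likelihood test in another, both on counts, and limma was used because the table holds log2 values. Nothing but the methods says that libraries are separate animals, and p-values measure the spread between these libraries. Precision rests on that spread, as raw depth is unknown.

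Named were genes called in a contrast, the 3 with the highest mean level in each class, those in which female vehicle 3 stood more than 1 log2 unit from the nearest vehicle library, the partner chains of collagens I, IV and VI, and in each other list the 3 genes with the smallest p in each sex. Members and lists were chosen with earlier results of these data known. Levels per length use exons merged over the transcripts of GENCODE on GRCm38, and runs of at least 5 glycine-led triplets were counted in the longest coding sequence of each gene. Alternatives were other scalings, filters, pseudocounts, thresholds, weights, fits of each sex alone, a block for the column number and leaving out libraries. A covariate for the missing direction was added after seeing the data. Tables were handled in Python 3.11.15 with pandas 2.3.3 and drawn with matplotlib 3.10.9.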

Additional observations from a re-analysis of the deposited data

Results flagged for a closer look

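A single vehicle library stood apart from the other 3 of its group, by Dixon's ratio of gap to range, in 5 of the 86 sets of 4 vehicle libraries examined, where chance gives about 1 in 20. Col1a1 stood at 8.61 log2 CPM in female vehicle 4, against 7.13 to 7.30 in the other vehicle libraries of the sex. Col4a6 stood at 2.75 log2 CPM in female vehicle 4, against 1.92 to 1.99 in the other vehicle libraries of the sex. Col8a1 stood at 6.01 log2 CPM in female vehicle 4, against 4.80 to 4.99 in the other vehicle libraries of the sex. Col15a1 stood at 5.04 log2 CPM in male vehicle 3, against 5.44 to 5.48 in the other vehicle libraries of the sex. Col18a1 stood at 5.27 log2 CPM in male vehicle 3, against 5.346 to 5.351 in the other vehicle libraries of the sex. Without female vehicle 4 the female changes of Col1a1 and Col8a1 were −0.92 and −1.40, both still called (adjusted p = 0.0293 and 0.0143 in limma). The same library had the highest summed macrophage markers of the female vehicle group, and the part of these cells was not tested.

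Col9a2 was picked out because its DHT change differed between the female and male libraries by 0.79 on the log2 scale in limma's interaction contrast, and sex and dataset cannot be told apart.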

How the results depend on the processing

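Leaving out 1 library at a time gave 6 to 20 called collagen genes in females, 3 to 9 in males and 0 to 12 for the difference, the main counts being 17, 6 and 1. Female counts were lowest without female DHT 2 (6) or female DHT 1 (9), and male counts lowest without male vehicle 4 (3) or male DHT 3 (3). Calls over all genes moved as well. In females 1871 were higher and 2848 lower without female DHT 2, and 3840 and 5039 without female DHT 3. In males 922 were higher and 815 lower without male vehicle 4. The 12 calls of the difference came without female DHT 3, where over all genes it had 1086 higher and 3150 lower. Col3a1, Col4a1, Col8a1, Col18a1, Col24a1 and Col25a1 kept the female call and Col9a2, Col9a3 and Col20a1 the male call in all 26 alternatives, and no called change turned its sign. Each sex alone gave 7 calls in females and 14 in males (13 lower and 1 higher), where fewer libraries share the spread. Over all genes these fits called 2150 higher and 2614 lower in females, and 2391 and 2702 in males. At an adjusted p under 0.01 there were 6, 3 and 0 calls in females, males and the difference, and at under 0.1 10 in males and 7 in the difference. Housekeeping centring gave 17 calls in females (10 rose and 7 fell, against 6 and 11), of which 13 were among the 17 above, Col1a2, Col4a2, Col5a1 and Col12a1 being lost and Col4a3, Col9a2, Col22a1 and Col23a1 gained. It gave 3 in males and 0 for the difference. Without female vehicle 3 and male DHT 3 together males had 3 calls and the difference 0, and the same counts came from a covariate for the missing direction. With the centring, without those 2 libraries and with that covariate no gene of the whole table had a called difference. The difference had 2 calls under quantile normalisation, 10 with array weights (whose estimation stopped before full convergence) and 0 with the column number as a replicate block. Over all genes the difference had 258 higher and 231 lower under quantile normalisation, 964 and 2563 with array weights, and 0 with the block. The columns share only a number, which the labels do not tie to a pairing, and that block gave 13 calls in females and 4 in males. Over all genes it gave 2450 higher and 3674 lower in females, and 1620 and 1368 in males. The causes were not tested.

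Changes near zero that were not called turned sign in Col3a1 in males under housekeeping centring (0.038) and array weights (0.0044), Col8a1 in males (0.0095) and Col5a3 and Col6a1 in females (0.019 and 0.15) under housekeeping centring, Col6a1 in females with array weights (0.060), Col4a1, Col4a2 and Col17a1 in males with the missing direction (−0.043, −0.052 and −0.22), and Col17a1 in males with voom (−0.29) and without the 2 libraries (−0.48). Leaving out 1 library gave ranges across zero for Col3a1 male −0.22 to 0.12, Col4a1 male −0.085 to 0.18, Col4a2 male −0.11 to 0.20, Col5a2 male −0.20 to 0.00062, Col6a1 female −0.38 to 0.041, Col6a4 male −0.16 to 0.63, Col8a1 male −0.21 to 0.052, Col16a1 male −0.040 to 0.32 and Col17a1 male −0.48 to 1.07. Over all named genes and alternatives 1345 of 1479 values kept direction and side of the threshold, 88 lost a call and 20 gained one. The chain ratios moved by less than 1 SD under pseudocounts of 0.5 and 1.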
